A study of Homo sapiens with 43 samples.

Results

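The genes of gluconeogenesis and glucose export were taken as 8 of the 58780 Ensembl genes in the deposited tables, matched by gene identifier to the symbols PC, PCK1, PCK2, FBP1, G6PC1, SLC37A4, SLC2A2 and PPARGC1A. All 8 were found once. They were followed in HepG2, a liver cancer line, with and without BRM014, and in GM12878, a B lymphoblastoid line transformed by Epstein-Barr virus, for contrast. BRM014 blocks the ATPase activity of SMARCA4 and SMARCA2, the motor subunits of BAF complexes, which move nucleosomes on chromatin.

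Gluconeogenesis makes glucose from lactate, amino acids and glycerol, and liver is its main site. Pyruvate carboxylase (PC) turns pyruvate into oxaloacetate in the mitochondrion, and phosphoenolpyruvate carboxykinase (PCK1 in the cytosol, PCK2 in the mitochondrion) turns oxaloacetate into phosphoenolpyruvate. Fructose-1,6-bisphosphatase (FBP1) and glucose-6-phosphatase (the catalytic subunit G6PC1) each bypass an irreversible step of glycolysis. SLC37A4 carries glucose 6-phosphate into the endoplasmic reticulum for G6PC1, SLC2A2 (GLUT2) lets glucose leave the hepatocyte, and PPARGC1A (PGC-1alpha) is a coactivator that raises transcription of the pathway during fasting.

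The series holds 43 libraries of polyadenylated RNA in 22 groups, 4 of HepG2 and 39 of GM12878. HepG2 cells were grown for 24 h in DMSO or in BRM014 at 10 µM (2 libraries each). In the pretreatment experiment, GM12878 cells were kept for 30 min in DMSO or in BRM014 at 10 µM and then given vehicle, 100 ng/mL of interferon gamma (IFNg) or 500 nM of dexamethasone (Dex), a glucocorticoid, for 1 h or 6 h (12 groups of 2 libraries). In a separate panel, GM12878 cells spent 6 h in DMSO, PBS, IFNg or Dex at the same doses, TNF at 25 ng/mL, LPS at 10 ng/mL, IL2 at 50 U/mL, or 500 nM of doxorubicin (Dox). Each of these groups had 2 libraries except Dox, which had 1. Each line is 1 established line, and no label says that replicates came from separate cultures, so p-values measure the spread between libraries, which may be technical.

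The HepG2 libraries held 9792630 and 17019403 counts under DMSO and 19910491 and 3055377 under BRM014, so BRM014 replicate 2 was the shallowest of the series. Those of GM12878 held 12910315 to 22939912. The summed level of 12 hepatocyte markers was 48801 to 50859.8 CPM (counts scaled to a fixed total per library) in HepG2 under DMSO and 1.47 to 4.02 CPM in GM12878, where APOH and FGA had 0 counts. That of 10 B cell markers was 1506 to 2741 CPM in GM12878 and 2.99 to 3.10 CPM in HepG2 under DMSO, where 6 of the 10 had 0 counts. The labels of both lines were therefore matched by their markers. Because BRM014 acts on protein activity, the mRNA of its targets does not check the treatment: SMARCA4 rose by 0.56 ± 0.087 (SE) and SMARCA2 fell by 0.58 ± 0.13 in HepG2 on the log2 scale.

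In HepG2 under DMSO all 8 genes were detected. Per transcript length, in TPM (transcripts scaled to a fixed total per library), PCK2 stood highest with 149 ± 0.0071 (SD, n = 2), more than any other of the 8. PC followed with 45.9 ± 2.09, SLC2A2 with 38.7 ± 7.86 and SLC37A4 with 33.0 ± 1.02. G6PC1 had 24.3 ± 0.601, PPARGC1A 12.01 ± 2.69, PCK1 3.76 ± 0.12 and FBP1 2.37 ± 0.148 TPM. The libraries of SLC2A2 (33.2 and 44.3 TPM) and SLC37A4 (32.3 and 33.7 TPM) overlapped, and the lower library of PC (44.4 TPM) lay just above the upper one of SLC2A2. The mitochondrial carboxykinase was thus far above the cytosolic one in this line, and FBP1 mRNA was the scarcest of the pathway.

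BRM014 for 24 h lowered 7 of the 8 genes in HepG2, and the exporter SLC2A2 did not pass the test. G6PC1 and PCK1 fell from clear expression to 4 and 2 counts over both treated libraries, PC, PPARGC1A and FBP1 fell 7.33-, 5.38- and 5.00-fold, and SLC37A4 and PCK2 fell 3.08- and 2.12-fold. Over all 13349 genes tested, 42.1% were called (adjusted p under 0.05), 22.8% lower and 19.3% higher. The median log2 fold change of the 8 genes was -2.38, beside -0.015 over all genes tested. In bulk RNA, fewer cells expressing a gene and less RNA per cell cannot be told apart.

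**Figure D1:**
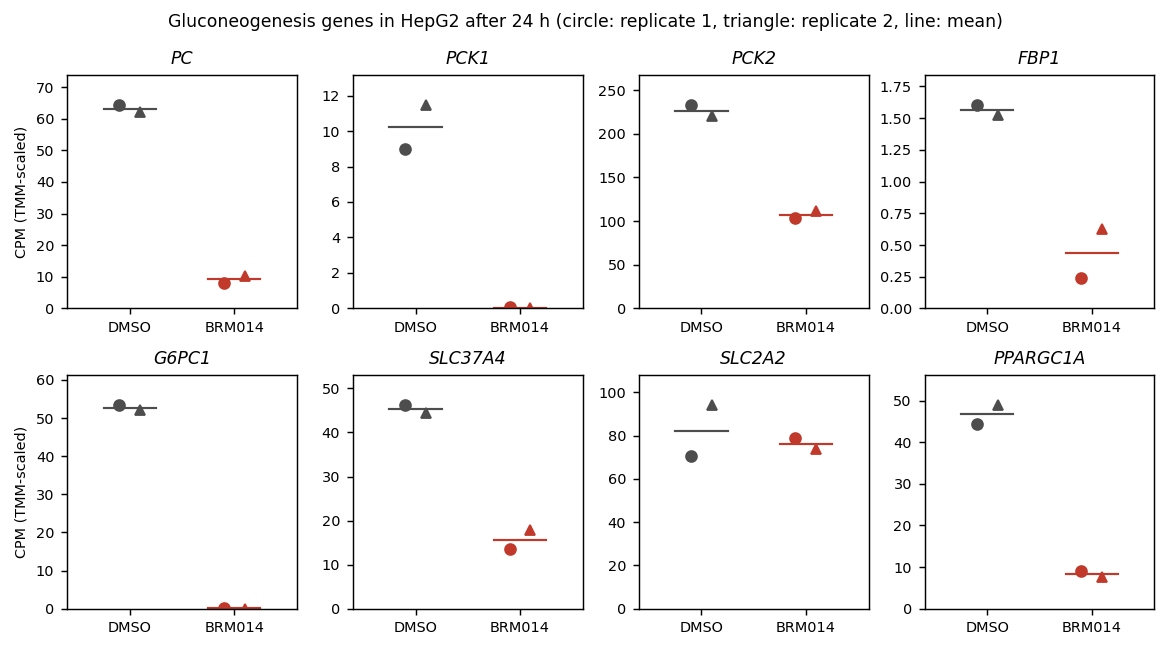
Level of each of the 8 genes in the 4 HepG2 libraries, in CPM scaled by TMM (trimmed mean of M values), with circles for replicate 1, triangles for replicate 2 and a line at the mean of each group; each panel has its own axis from 0. The DMSO and BRM014 points are apart in every panel but that of SLC2A2, and the BRM014 points of G6PC1 and PCK1 lie at or next to 0. With 2 libraries per group, points can also be apart in unchanged genes. The share of all genes whose points are apart was not worked out.

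Of the enzymes at the entry of the pathway, PC (ENSG00000173599.13, hg38 chromosome 11, 66848417 to 66958386, minus strand) stood at 64.3 and 62.1 CPM under DMSO and at 8.11 and 10.3 CPM under BRM014. Both DMSO libraries lay above both BRM014 libraries, and the log2 fold change was -2.87 ± 0.15 (SE, adjusted p = 1.27e-10). An exon of PC overlaps LRFN4 on the opposite strand, and the sources used here do not say if reads were counted by strand. LRFN4 moved the other way (log2 fold change 1.71 ± 0.24, adjusted p = 1.89e-05) and had 541 counts over the 4 libraries against 1821 for PC.

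PCK1 (ENSG00000124253.10, chromosome 20, 57561080 to 57568121, plus strand), the carboxykinase that hormones regulate in liver, had 84 and 188 counts under DMSO, or 8.98 and 11.5 CPM. Under BRM014 it had 2 and 0 counts, or 0.0966 and 0 CPM. The 272 DMSO counts against 2 gave a ratio of 116 after scaling for total counts (95% counting interval 31.9 to 967), and the test gave an adjusted p of 6.72e-09. PCK2 (ENSG00000100889.11, chromosome 14, 24094053 to 24110598, plus strand), the mitochondrial enzyme, stood at 232.8 and 219.9 CPM under DMSO and 103.7 and 111 CPM under BRM014. It kept 47.1% of its control level (log2 fold change -1.09 ± 0.092, adjusted p = 6.09e-08), the smallest of the 7 falls. Under BRM014 PCK2 was still the highest of the 8 per length, at 80.0 ± 1.58 TPM, while PCK1 stood at 0.015 ± 0.021 TPM.

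FBP1 (ENSG00000165140.10, chromosome 9, 94603133 to 94640249, minus strand), which removes a phosphate from fructose 1,6-bisphosphate, was scarce. It had 15 and 25 counts under DMSO and 5 and 2 under BRM014, a ratio of 4.89 (95% counting interval 2.17 to 12.9). The groups did not overlap (1.603 and 1.52 CPM against 0.241 and 0.627 CPM), and the log2 fold change was -2.32 ± 0.63 (adjusted p = 0.00714). The call did not hold with DESeq2 (adjusted p = 0.123), without DMSO replicate 2 (0.0697) or without BRM014 replicate 1 (0.418), and without the latter the log2 fold change was -1.29. Its antisense neighbour PCAT7, whose exons overlap it, did not pass the test (-0.48 ± 0.28, adjusted p = 0.182) and had 290.0 counts over the 4 libraries.

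The terminal enzyme G6PC1 (ENSG00000131482.9, chromosome 17, 42900797 to 42914438, plus strand) had the largest fitted fall of the 8, with a counting interval that overlapped that of PCK1. It had 499 and 853 counts under DMSO, or 53.3 and 52.0 CPM, and 4 and 0 counts under BRM014, or 0.193 and 0 CPM. The ratio of the summed counts was 289.5 after scaling for total counts (95% counting interval 113 to 1064), and the adjusted p was 1.04e-12. By its fitted log2 fold change of -8.22 ± 0.29 it ranked 11 from the bottom of the 13349 genes, and PCK1, with -6.79 ± 0.48, ranked 37. Both fitted values depend on the prior added to counts near 0. Their SE, worked back from the test statistic, is smaller than the counting error at such counts. The size is therefore given as the count ratio. Its interval covers counting error only, and replicate libraries differed by more than that.

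SLC37A4 (ENSG00000137700.18, chromosome 11, 119023751 to 119030906, minus strand), which feeds glucose 6-phosphate to G6PC1, fell from 46.2 and 44.4 CPM to 13.5 and 17.9 CPM. Its log2 fold change was -1.62 ± 0.15 (adjusted p = 1.76e-07), so that 32.5% of the control level remained. TRAPPC4, which overlaps it on the opposite strand, did not pass the test (-0.063 ± 0.12, adjusted p = 0.697). PPARGC1A (ENSG00000109819.8, chromosome 4, 23755041 to 23904089, minus strand), the coactivator, fell from 44.5 and 48.8 CPM to 9.03 and 7.52 CPM, a log2 fold change of -2.43 ± 0.15 (adjusted p = 1.51e-09).

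SLC2A2 (ENSG00000163581.13, chromosome 3, 170996347 to 171026743, minus strand), the facilitative transporter through which hepatocytes take up and release glucose, was the exception. It stood at 70.6 and 94.0 CPM under DMSO and at 78.7 and 73.7 CPM under BRM014, so both treated libraries lay between the DMSO libraries. The log2 fold change was -0.11 ± 0.12 (adjusted p = 0.515), with a 95% interval from -0.37 to 0.15. That interval leaves out a fall as large as that of PCK2, the smallest of the called falls. Without DMSO replicate 2 the value was 0.12.

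Leaving out the shallow BRM014 replicate 2, which leaves 1 treated library whose spread is assumed to be that of the DMSO pair, kept 7 of the 8 genes lower. Thinning all libraries to the shallowest left FBP1 untested and 6 of the other 7 lower. With DESeq2, 6 genes were lower and FBP1 was lost. The number of genes called changed with the setting, and the share of all genes called lower in each is not given here. The 22.8% of the main fit is therefore no background for these counts.

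**Figure D2:**
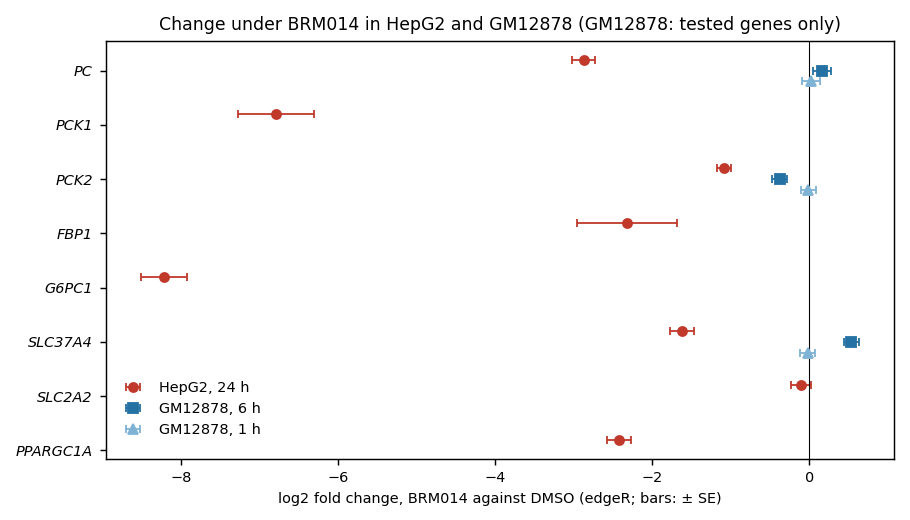
Log2 fold change of each gene under BRM014 from the edgeR fits, with bars of 1 SE: HepG2 at 24 h (red circles), GM12878 at 6 h (blue squares) and at 1 h (light triangles). In GM12878 only SLC37A4, PCK2 and PC had counts enough for a test. G6PC1 and PCK1 lie farthest left, SLC2A2 at 0, and SLC37A4 on opposite sides of 0 in HepG2 and in GM12878 at 6 h. The bars of G6PC1 and PCK1, which had counts near 0 under BRM014, are narrower than the counting error.

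The stretch before the start site is shown for G6PC1, whose counts fell nearly to 0, for PC, which fell 7.33-fold, and for SLC2A2, which did not pass the test. The RefSeq table (GRCh38.p14) held a window for 7 of the 8 genes, and up to 250 bases before the start were searched on both strands, ending before the first base of an annotated exon in what is printed. The motifs were the cAMP response element TGACGTCA and its core TGACG, which lies within it, CAAAGTCCA (HNF4 type), TGTTTTG for factors of the FOXO family, TGTTTAC for those of the FOXA family, TTGCNNAA (C/EBP) and TATAAA for the TATA box. Matches are in capitals, 5′ to 3′ along the gene. The stretches are chr17:42900549-42900796 (plus), chr11:66958387-66958633 (minus) and chr3:171026744-171026970 (minus).
G6PC1: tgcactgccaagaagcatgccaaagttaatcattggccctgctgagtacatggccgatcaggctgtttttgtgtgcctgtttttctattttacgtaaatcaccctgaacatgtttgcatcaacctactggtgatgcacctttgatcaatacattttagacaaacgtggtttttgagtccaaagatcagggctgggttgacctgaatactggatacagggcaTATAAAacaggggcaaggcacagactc
PC: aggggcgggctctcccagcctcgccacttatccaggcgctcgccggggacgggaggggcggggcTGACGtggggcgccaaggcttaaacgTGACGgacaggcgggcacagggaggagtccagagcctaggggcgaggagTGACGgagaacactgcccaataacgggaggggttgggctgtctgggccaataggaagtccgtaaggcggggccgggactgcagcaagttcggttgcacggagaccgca
SLC2A2: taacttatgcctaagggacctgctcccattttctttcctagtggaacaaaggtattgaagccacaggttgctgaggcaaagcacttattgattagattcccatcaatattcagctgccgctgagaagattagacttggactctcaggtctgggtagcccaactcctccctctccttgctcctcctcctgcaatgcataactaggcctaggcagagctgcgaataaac
The G6PC1 stretch held TATAAA at -29 to -24 from the start, a sequence that 10.7% of all 35114 windows of this length held. The PC stretch held TGACG 3 times (first bases at -186, -160 and -111), a sequence that 21.2% of windows held at least once. The table held 3 windows for PC, of which the farthest upstream is shown, and the other 2 held none of the motifs. None of the 7 motifs was in the SLC2A2 stretch, which says only that these letters are not in this window. The windows of PCK2 and FBP1, both called lower, held none of them either. Of the 250 bases of the PCK2 window, 234 lay within annotated exons, so little sequence outside exons was searched for this gene. PPARGC1A had TGACG in a window with 46 bases in annotated exons and TTGCNNAA in another with 208. SLC37A4 had TATAAA in a window whose 250 bases all lay within annotated exons, and no match in its other window. The shares of windows with the other motifs were 1.65% for TGACGTCA, 0.325% for CAAAGTCCA, 4.30% for TGTTTTG, 2.98% for TGTTTAC and 9.05% for TTGCNNAA. The share of G and C in the whole window was 44% for G6PC1, 67.6% for PC and 48.8% for SLC2A2, against a median of 58.0% over all windows.

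The lists around the pathway are described next in HepG2, each beside the background of 22.8% lower and 19.3% higher. Of the 23 genes that supply carbon to gluconeogenesis, 19 were tested, 11 were lower and 0 higher, with a median log2 fold change of -0.52. GPT2, the mitochondrial alanine aminotransferase, fell from 358.9 and 359.1 CPM to 139 and 152 CPM (-1.31 ± 0.090, adjusted p = 4.31e-09). AQP3, a glycerol channel, fell from 7.48 and 6.46 CPM to 0.435 and 0.314 CPM (-4.02 ± 0.39, adjusted p = 3.29e-07). GPD1, which turns glycerol 3-phosphate into dihydroxyacetone phosphate, fell from 8.01 and 6.34 CPM to 1.01 and 0.941 CPM (-2.81 ± 0.33, adjusted p = 3.38e-06). MPC1, a subunit of the mitochondrial pyruvate carrier, fell by 0.97 ± 0.13 (adjusted p = 8.78e-06).

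Of the 26 genes of glycolysis and the steps it shares with gluconeogenesis, 22 were tested, 14 were lower and 3 higher, with a median of -0.39. PKLR, the pyruvate kinase of liver, fell from 19.0 and 20.2 CPM to 2.70 and 2.19 CPM (-2.91 ± 0.21, adjusted p = 1.06e-08). HKDC1, a hexokinase, fell from 29.6 and 37.5 CPM to 3.33 and 0.627 CPM (-3.56 ± 0.27, adjusted p = 1.96e-07). ALDOC, an aldolase that also serves the reverse direction, fell by 2.04 ± 0.15 and LDHA, the lactate dehydrogenase subunit, by 0.90 ± 0.086. The last 2 enzymes work in both directions, so the list does not part glycolysis from gluconeogenesis.

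Of 13 glucose transporters other than SLC2A2, 9 were tested, 6 were lower and 1 higher, with a median of -1.28. SLC2A1 (GLUT1), the basal transporter of most proliferating cells, fell from 2332 and 2355 CPM to 309.7 and 358.7 CPM (-2.82 ± 0.096, adjusted p = 8.18e-13). SLC2A9, a urate transporter of the family, fell by 2.77 ± 0.18, SLC2A10 by 1.38 ± 0.17 and SLC2A4 (GLUT4) by 1.52 ± 0.27. Of 16 genes of glycogen turnover, 15 were tested, 6 were lower and 1 higher, with a median of -0.33. PGM1, which links glucose 1-phosphate and glucose 6-phosphate, fell by 1.07 ± 0.12, GYG2, the liver glycogenin, by 1.34 ± 0.19, the phosphorylase kinase subunit PHKB by 0.58 ± 0.095 and PPP1R3B, the hepatic glycogen-targeting phosphatase subunit, by 2.34 ± 0.46.

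**Figure D3:**
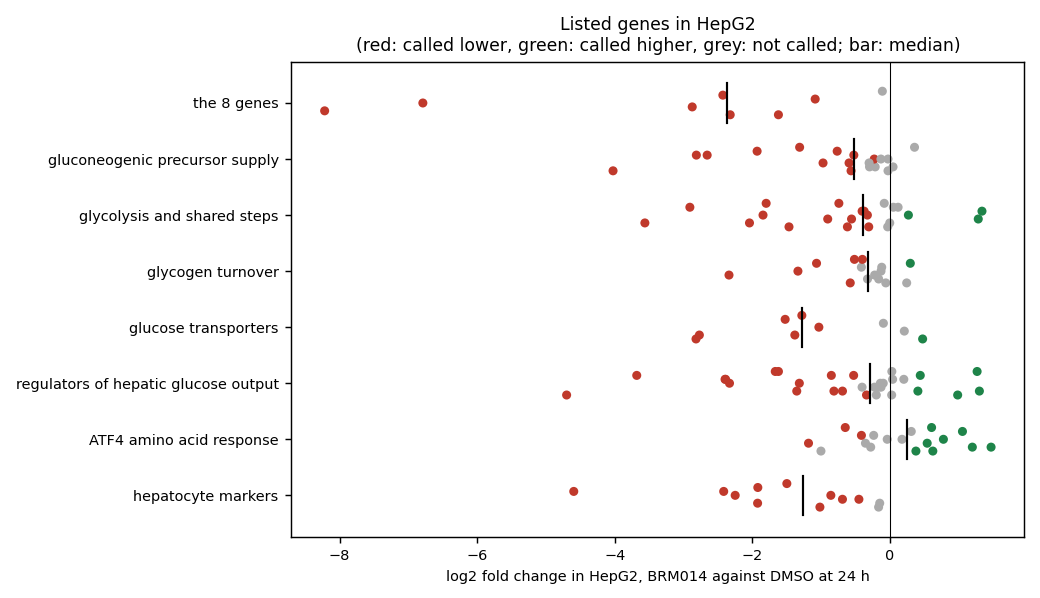
Log2 fold change of every tested gene of 8 lists in HepG2, with each point 1 gene (red: called lower, green: called higher, grey: not called) and a bar at the list's median. The medians run from -2.38 for the 8 genes to 0.24 for the ATF4 list.

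Of 32 regulators of hepatic glucose output, 30 were tested, 14 were lower and 5 higher, with a median of -0.28. IGFBP1, a secreted protein that insulin represses together with G6PC1 and PCK1, fell from 2110.2 and 2232 CPM to 82.7 and 85.0 CPM (-4.70 ± 0.10, adjusted p = 4.87e-15). The liver transcription factor HNF4A fell by 1.62 ± 0.094 (adjusted p = 4.89e-10), and the corepressor NR0B2 (SHP) by 2.40 ± 0.12. FOXO1, CREB1, CRTC2 and CEBPB, factors of insulin and glucagon signalling, were among the 11 tested genes of the list that were not called. FOXO1 stood at -0.23 ± 0.12 (adjusted p = 0.145), CREB1 at -0.14 ± 0.12 (0.382), its coactivator CRTC2 at 0.039 ± 0.12 (0.822) and CEBPB at -0.13 ± 0.15 (0.512). The glucocorticoid receptor NR3C1 was higher, at 1.30 ± 0.15 (adjusted p = 4.73e-06). These last 5 genes lie outside the rule for named genes and were chosen after their values were seen.

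PCK2 is known as a target of ATF4, the factor of the amino acid response, so that list was examined beside it. Of 19 genes, 18 were tested, 8 were higher and 3 lower, with a median of 0.24. ASNS, which makes asparagine, rose from 64.0 and 53.9 CPM to 173.8 and 147 CPM (1.47 ± 0.11, adjusted p = 1.61e-08). SLC7A11, the cystine transporter, rose by 1.198 ± 0.15 and PSAT1, of serine synthesis, by 0.78 ± 0.090, while PHGDH of the same synthesis fell by 1.18 ± 0.099 (adjusted p = 4.80e-08). The part of ATF4 in the fall of PCK2 was not tested.

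Of 8 paralogs of the pathway genes, 6 were tested, 2 were higher and 2 lower, but 1 was higher and 1 lower with DESeq2, without DMSO replicate 1 or without BRM014 replicate 1. SLC37A3 rose by 0.70 ± 0.13 and SLC37A2 fell by 1.599 ± 0.34, PPRC1, of the PPARGC1A family, rose by 0.34 ± 0.11, and G6PC3, the ubiquitous glucose-6-phosphatase, fell by 0.30 ± 0.10, from 85.9 and 82.1 CPM to 65.9 and 71.5 CPM. With G6PC1 at 4 counts in the treated libraries, G6PC3 was the family member that was still expressed. Hepatocyte markers moved with the pathway: 10 of 12 were lower and 0 higher, with a median of -1.26, and their summed level went to 22687 to 23829.8 CPM under BRM014. ALB fell by 0.45 ± 0.087, APOA1 by 2.25 ± 0.10 and APOA2 by 2.42 ± 0.098. The B cell markers summed to 0.338 to 1.57 CPM in the treated HepG2 libraries. The part of this lower hepatocyte marker RNA in the falls of the pathway genes was not tested.

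In GM12878 most of the pathway was near 0. G6PC1, PCK1, FBP1, PPARGC1A and SLC2A2 never exceeded 5 counts in any of the 39 libraries and summed to 9, 24, 40, 18 and 10 counts over all 39 libraries. They had 0 counts in 33, 22, 17, 28 and 32 libraries and were not tested. The 3 genes with a wider role were expressed in all 39 libraries. Per length, PCK2 was again highest, with a median of 33.6 TPM (28.0 to 39.4), before SLC37A4 with 13.05 TPM (9.96 to 21.7) and PC with 9.29 TPM (5.32 to 18.7), whose ranges overlapped.

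Set against the panel DMSO libraries of GM12878, HepG2 under DMSO had more RNA of all 8 genes, where 79.4% of the 17873 genes tested were called, 37.5% higher and 41.9% lower. G6PC1 and SLC2A2 had 0 counts in the panel DMSO libraries, and against a floor of 3 counts over the group HepG2 was at least 705-fold and at least 1148-fold higher. PCK1 and PPARGC1A each had 1 count there, for ratios of 425.5 (95% counting interval 75.7 to 16869) and 1904 (341 to 75266). FBP1, with 3 counts, was 20.9-fold higher (6.64 to 105), and all 3 were in 1 library: without it the fitted log2 value was 7.77, and without the other 3.48. PC was higher by 2.11 ± 0.11 on the log2 scale, PCK2 by 2.03 ± 0.078 and SLC37A4 by 0.98 ± 0.095 (largest adjusted p = 5.61e-13). Line, medium, time and experiment cannot be told apart in this comparison.

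At 6 h in GM12878, BRM014 raised SLC37A4, lowered PCK2 and gave no call for PC. Of 15183 genes tested, 38.5% were called, 18.4% higher and 20.1% lower. SLC37A4 stood at 21.96 and 20.3 CPM in the DMSO and vehicle libraries and at 29.7 and 31.1 CPM after BRM014, with no overlap (0.53 ± 0.093, adjusted p = 2.64e-05). PCK2 went from 60.9 and 51.1 CPM to 42.0 and 43.5 CPM (-0.38 ± 0.092, adjusted p = 0.00164). Without DMSO vehicle replicate 1, the higher of the controls, it was -0.25 and not called (adjusted p = 0.0527). PC stood at 15.0 and 16.03 CPM and then 17.5 and 17.3 CPM, apart but by less than the test could call (0.16 ± 0.11, adjusted p = 0.283, 95% interval -0.072 to 0.39). LRFN4, which overlaps PC on the opposite strand, had 10449 counts over the GM12878 libraries against 10628 for PC and fell by 0.88 ± 0.12 (adjusted p = 6.89e-07), and its part in the PC counts was not tested.

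The same comparison in stimulated cells used other libraries. With IFNg at 6 h, where 33.6% of genes were called, SLC37A4 went from 22.1 and 21.0 CPM to 35.6 and 32.9 CPM (0.67 ± 0.094, adjusted p = 1.21e-06). With Dex at 6 h, where 37.7% were called, 20.6% lower, it went from 25.2 and 22.4 CPM to 30.4 and 34.5 CPM (0.44 ± 0.092, adjusted p = 0.000267). The 6 libraries with BRM014 at 6 h, at 29.7 to 35.6 CPM, all lay above the other 18 pretreatment libraries, at 18.6 to 25.2 CPM. PCK2 with IFNg overlapped between arms (45.8 and 53.1 CPM against 43.98 and 47.2 CPM) and was not called (-0.13 ± 0.094, adjusted p = 0.332). With Dex it fell from 53.2 and 50.7 CPM to 41.0 and 45.9 CPM (-0.26 ± 0.093, adjusted p = 0.0301). PC was not called in either.

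At 1 h, after which 2.05% of genes were called (0.599% higher, 1.46% lower), 0 of the 3 tested genes were called by edgeR, 0 passed at an unadjusted p under 0.05 and 0 were called by DESeq2. SLC37A4 stood at -0.023 ± 0.098, PCK2 at -0.012 ± 0.091 and PC at 0.020 ± 0.12 on the log2 scale, each with an adjusted p of 0.995 or more. The 95% intervals reached no farther than 0.26 in either direction, so a change of the size seen for SLC37A4 at 6 h lay outside them.

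**Figure D4:**
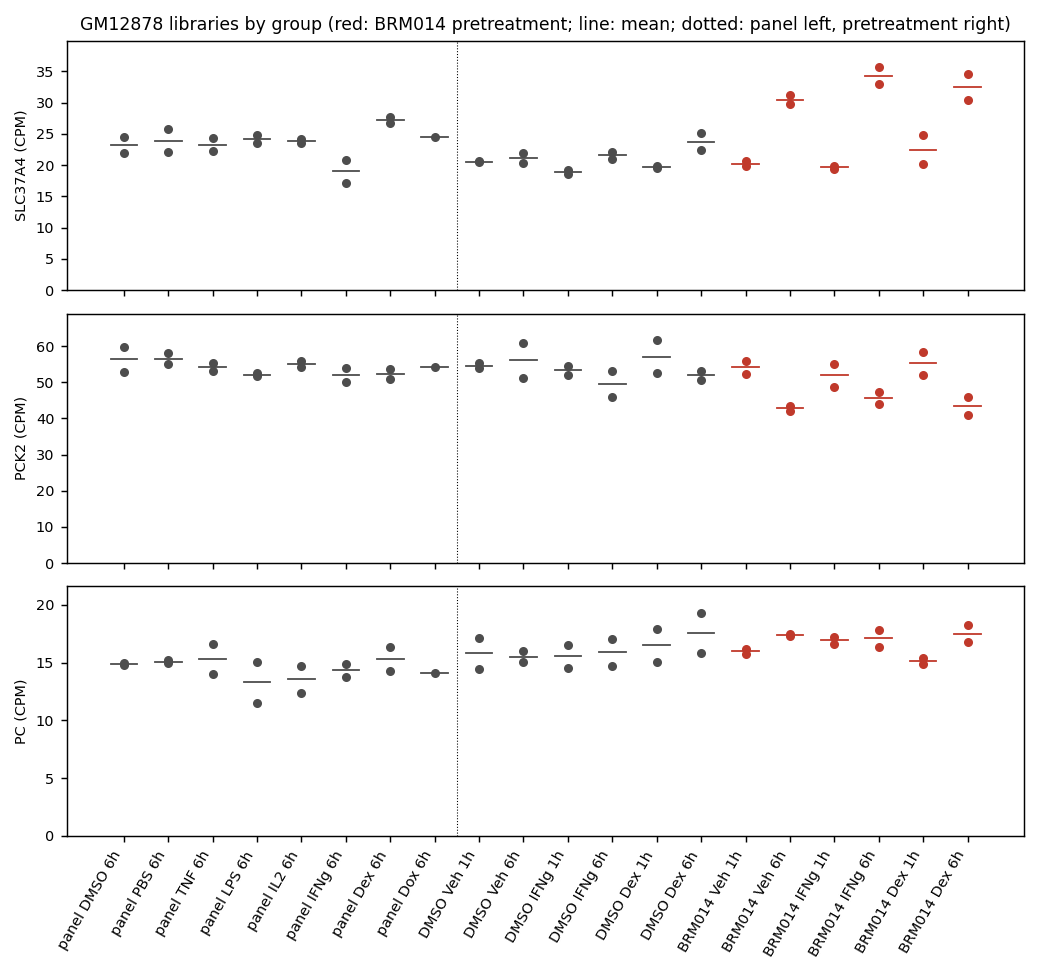
Level of SLC37A4, PCK2 and PC in the 39 GM12878 libraries, in CPM scaled by TMM within each experiment; each point is 1 library, each line a group mean, red marks BRM014, and the dotted line parts the panel (left) from the pretreatment experiment (right). SLC37A4 is high in the 3 BRM014 groups at 6 h. PCK2 was called lower with vehicle and with Dex, its points overlap with IFNg, and PC was called in none of the 3.

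The difference between lines was tested itself for the 3 genes expressed in both, in a comparison where 27.5% of genes were called and 16.8% lower. The BRM014 effect in HepG2 at 24 h minus that in GM12878 at 6 h was -3.10 ± 0.18 for PC (adjusted p = 1.17e-18), -2.24 ± 0.15 for SLC37A4 (1.54e-16) and -0.79 ± 0.12 for PCK2 (4.19e-07). SLC37A4 thus moved in opposite directions, PCK2 fell in both but further in HepG2, and PC fell in HepG2 and was not called in GM12878. Line, length of exposure and experiment cannot be told apart here. With the GM12878 effect at 1 h in its place the differences were -2.94, -1.66 and -1.13.

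Glucocorticoids are known to induce gluconeogenic genes in liver. In GM12878 all 4 genes of a short Dex response list rose in the panel and in the DMSO arm of the pretreatment experiment. Of the 3 tested pathway genes, 0 were called in the panel, where 25.7% of genes were, and 0 in the pretreatment experiment, where 15.6% were (8.06% higher, 7.53% lower). At an unadjusted p under 0.05, 1 of the 3 (SLC37A4) passed in the panel and 0 in the pretreatment experiment, and DESeq2 called 0 in each. SLC37A4 after Dex stood at 27.7 and 26.7 CPM in the panel, above all 4 vehicle libraries (21.9 to 25.8 CPM), at 0.21 ± 0.082 (adjusted p = 0.0579). It was called without panel DMSO replicate 2 (0.0409) or without PBS replicate 1 (0.0119). In the pretreatment experiment it stood at 25.2 and 22.4 CPM against 21.96 and 20.3 CPM (0.18 ± 0.096, adjusted p = 0.240). The other 5 genes stayed at 5 counts or fewer after Dex. The Dex response did not differ with BRM014 by the interaction test for SLC37A4 (-0.089 ± 0.13), PCK2 (0.12 ± 0.13) or PC (-0.18 ± 0.16), with adjusted p of 0.785 or more where 2.76% of genes were called (1.04% higher, 1.72% lower). By edgeR at an unadjusted p under 0.05 and by DESeq2, 0 of the 3 interactions passed.

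After IFNg in the panel, where 11.9% of genes were called, 7.11% higher and 4.75% lower, SLC37A4 stood at 17.2 and 20.9 CPM, below all 4 vehicle libraries (-0.30 ± 0.089, adjusted p = 0.0198). PCK2 and PC were not called. The call on SLC37A4 was lost with DESeq2 (adjusted p = 0.0938), with DMSO alone as control (0.0686), and without DMSO replicate 2 (0.0851), PBS replicate 1 (0.0722) or IFNg replicate 1 (0.442). In the pretreatment experiment the 2 IFNg libraries, at 22.1 and 21.0 CPM, overlapped the controls (21.96 and 20.3 CPM, 0.033 ± 0.098, adjusted p = 0.930), where 6.62% of genes were called, 3.47% higher and 3.15% lower. After TNF, LPS, IL2 and Dox, which were not tested, SLC37A4 stood at 22.2 to 24.8 CPM, within the range of the vehicle libraries. PCK2 in these groups stood at 51.7 to 56.0 CPM beside 52.8 to 59.9 CPM in the vehicles, and PC at 11.5 to 16.6 CPM beside 14.8 to 15.2 CPM.

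The genes whose pattern over the 39 GM12878 libraries was most like each of the 3 were found by Pearson's r of log2(CPM + 1), centred within each experiment, among 10442 genes. For SLC37A4 they were PAGR1 (r = 0.93), TYSND1 (0.91) and RTN3 (0.91). For PCK2 they were FES (0.85), LIMD2 (0.85) and TIMP1 (0.84). For PC they were SYNGR3 (0.59), C8orf58 (0.59) and C17orf58 (0.58). The libraries of a group share their treatment, so these values are a description of treatment patterns, and those of PC were weak.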

How the data were processed

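The authors deposited, per library, RSEM expected counts (estimated reads per gene, not scaled for depth) and TPM (scaled for length and to a fixed total per library), per the file headers. STAR, RSEM and hg38 are named in the submitters' processing notes, without versions, and the sources used here do not say if strand was used. Expected counts were rounded. Identifiers (59526 per file) include 746 that name no Ensembl gene, hold 0 counts and were left out. Symbols came from GENCODE 44.

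Tests used edgeR 4.0.16 (R 4.3.3): TMM, filterByExpr (minimum count 10), robust quasi-likelihood fits of HepG2 (4 libraries), the pretreatment experiment (24), the panel (15) or all 43, 2-sided, Benjamini-Hochberg adjusted over all genes of a comparison and called under 0.05. The SE of each edgeR log2 fold change was worked back from its F statistic. Panel stimuli were set against the mean of DMSO and PBS. Genes near 0 counts are given as count ratios with exact 95% intervals or against a floor of 3 counts, which cover counting error only. Replicate libraries of each group differed by more than sampling noise (lowest chi-square per degree of freedom 2.52). On simulated HepG2 data, 58.2%, 80.6% and 95.5% of genes changed 1.5-, 2- and 4-fold were recovered, with 13 false among 169 calls over 13349 genes. The 200 changed genes were drawn from better expressed genes, so these rates do not cover scarce ones such as FBP1. They were also fewer than the 5617 genes called in the HepG2 data.

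All 8 genes were named in every comparison. In HepG2, each list added its 4 called genes with the smallest adjusted p, or all called if fewer, and marker lists up to 3 in list order. One listed gene that the rule names is not reported here. In GM12878 the 3 genes most like each expressed pathway gene were added. The genes and lists were chosen with earlier results of these data known. Alternatives were DESeq2 1.42.0 and its size factors, no filter, a replicate block, other libraries in the fit or as controls, thinning, and each library left out. The panel IFNg result in the pretreatment experiment was added after seeing the data.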

Additional observations from a re-analysis of the deposited data

Results flagged for a closer look

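The effect of BRM014 differed between the lines, by a test of the difference itself, for the 3 pathway genes expressed in both. HepG2 at 24 h minus GM12878 at 6 h, the difference in log2 fold change was -2.24 for SLC37A4, -0.79 for PCK2 and -3.10 for PC. SLC37A4 changed sign between lines, with -1.62 in HepG2 and 0.53 in GM12878. The exposure was 24 h in one line and 6 h in the other, so line and time cannot be told apart.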

How the results depend on the processing

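Of 490 values recomputed under an alternative, 453 stayed the same. The values were log2 fold changes of the pathway genes and numbers of genes called in a comparison. A fold change stayed the same if it kept its direction and its side of the threshold. A number of genes called did so if it stayed near that of the main fit. Depth limits FBP1, G6PC1 and PCK1, which rest on 7, 4 and 2 counts in the treated HepG2 libraries. FBP1 was -2.15 and not called with DESeq2, and lay between -2.64 and -1.29 with a library left out. SLC2A2, not called, lay between -0.30 and 0.12 with a library left out.

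With a library left out, the number of genes called was 149 to 203 for BRM014 at 1 h (312 with all), 267 to 375 for the Dex by BRM014 interaction (419) and 1060 to 2024 for IFNg in the panel (1872), where its lowest values came from leaving out an IFNg library. In the pretreatment experiment IFNg gave 1005 calls, with SLC37A4 at 0.033 and PC at 0.020. For the difference between lines, DESeq2 called 2235 genes higher and 2243 lower, against 1901 and 3008 with edgeR. The cause was not tested for any of these.

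The other changes of sign were in values that were not called. For BRM014 at 1 h, SLC37A4 lay between -0.059 and 0.0060, PCK2 between -0.060 and 0.033 and PC between -0.099 and 0.14 with a library left out. In libraries with a stimulus, SLC37A4 at 1 h was 0.053 with IFNg and 0.18 with Dex, and PC with Dex was -0.13 at 1 h and -0.015 at 6 h. With a library left out, PCK2 after Dex lay between -0.23 and 0.026 in the pretreatment experiment, and PC between -0.072 and 0.12 in the panel. In the interaction, SLC37A4 lay between -0.18 and 0.0099 and PCK2 between -0.0042 and 0.25.

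Replicate numbers did not pair the libraries: same-numbered libraries deviated together with r = -0.094 in HepG2, -0.069 to 0.083 in the pretreatment experiment and -0.053 to 0.044 in the panel. With a replicate block, 4749 genes were called in HepG2 (5617 without), 5901 in GM12878 with BRM014 at 6 h (5846) and 316 at 1 h (312). FBP1 was then -2.23 (adjusted p = 0.0191), and the block changed no call on the 8 genes.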

Other observations

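In GM12878 at 6 h after BRM014 the lists around the pathway were called as follows, beside a background of 18.4% higher and 20.1% lower. Of 21 tested genes of glycolysis, 12 were lower and 0 higher, with a median log2 fold change of -0.25. That count was 7 without DMSO vehicle replicate 1 or without BRM014 vehicle replicate 1, and 17 without DMSO vehicle replicate 2. Of 8 tested glucose transporters, 4 were lower and 2 higher (0 higher without DMSO vehicle replicate 1 or BRM014 vehicle replicate 2), with a median of -0.99. Of 19 tested genes of precursor supply, 4 were lower and 4 higher, with 2 lower without BRM014 vehicle replicate 1. Of 13 tested genes of glycogen turnover 2 were lower and 4 higher, but 3 lower and 2 higher without DMSO vehicle replicate 2, 2 and 2 without BRM014 vehicle replicate 1, and 5 lower and 1 higher in the IFNg-treated libraries. The ATF4 list had 8 lower and 5 higher of 18 tested, and 5 lower and 5 higher without BRM014 vehicle replicate 1. In HepG2 it had 3 lower and 8 higher, and the difference between lines was not tested for the list. Of the regulators of hepatic glucose output, 17 were tested, 6 were lower and 0 higher. B cell markers were lower for 7 of 10 and higher for 0, with a median of -0.56. The 4 genes of the Dex response list rose with Dex in DMSO-pretreated cells, and their response was lower with BRM014 for 3 of the 4 by the interaction test and higher for 0.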
